A study of Caenorhabditis elegans with 21 samples.

Results

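The furrow collagens of *Caenorhabditis elegans* are the 6 cuticle collagens DPY-2, DPY-3, DPY-7, DPY-8, DPY-9 and DPY-10. Their genes were taken by symbol from a table of poly(A) RNA read counts that lists 45461 genes, and all 6 were found and tested. The libraries came from whole animals grown at 20°C, with 3 libraries of the *hpl-2*(*tm1489*) strain and 2 libraries of wild-type N2 (Bristol). The *tm1489* allele deletes part of the gene for HPL-2, which belongs to the HP1 family of heterochromatin proteins, and no other allele or treatment is given for either strain. By the sample labels the *hpl-2*(*tm1489*) animals were L4 larvae and the N2 animals young adults, while the methods of the study give L4 for both, so that a stage difference between the groups cannot be told apart from genotype. A further limit of the comparison is that 1 mutant strain stands for the loss of HPL-2 and that only 2 libraries stand for the wild type.

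The cuticle of the worm is a collagen exoskeleton that the epidermis makes anew before each molt. Narrow circular furrows divide its surface into the ridges called annuli, and the furrow collagens sit in or under these furrows. The 6 collagens depend on each other: animals that lack any of them have no furrows and a short, thick (dumpy) body. Transcripts of furrow collagens rise and fall with each larval molting cycle, early in the cycle and ahead of many other collagens, so that their level in a population depends on where its animals stand between molts. Animals without furrows also turn on osmotic stress, detoxification and epidermal antimicrobial peptide genes. Collagen precursors are hydroxylated, cut by proteases and cross-linked before they become part of the cuticle.

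Depth was high in all libraries, at 95252804 to 114718047 counts on genes in *hpl-2*(*tm1489*) and 66490671 to 80724052 in N2. Levels are given as CPM, which are counts put on a common library size after TMM normalization. A gene is called changed where its adjusted p (Benjamini-Hochberg) was under 0.1 by the quasi-likelihood test of edgeR over the 17498 genes that passed the low-count filter. Much of the transcriptome differed by this rule, with 61.5% of tested genes called, 27.6% lower and 33.9% higher in *hpl-2*(*tm1489*), and over all of them the log2 fold change had a median of 0.16. The *hpl-2* transcript itself had 26.7, 30.4 and 29.9 CPM in *hpl-2*(*tm1489*), against 38.9 and 38.6 CPM in N2, a difference that was not called (log2 fold change -0.42, adjusted p 0.192 in edgeR). This count also covers sequence outside the deleted stretch, so it does not check the strain labels. No library was set aside. The methods of the study describe the libraries of each strain as biological replicates.

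Transcripts of all 6 furrow collagens were lower in *hpl-2*(*tm1489*) than in N2. Each of the 6 passed the threshold, where 27.6% of all tested genes were called lower, and for each of them every *hpl-2*(*tm1489*) library lay below both N2 libraries, an arrangement found for 33.0% of tested genes. The median log2 fold change of the 6 was -2.43, and the single values ran from -3.30 for *dpy-3* to -1.57 for *dpy-8*. Summed over the 6 genes, the libraries held 56.96, 59.4 and 41.4 CPM in *hpl-2*(*tm1489*), against 225 and 285 CPM in N2. The mean of these sums was 52.6 ± 9.80 CPM in *hpl-2*(*tm1489*) (SD, n = 3) and 255 ± 42.3 CPM in N2 (SD, n = 2), a 4.84-fold lower level. In RNA of whole animals, fewer epidermal cells and less RNA per cell cannot be told apart. No member was near the detection floor, with counts between 155 and 3709 in every library.

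**Figure D1:**
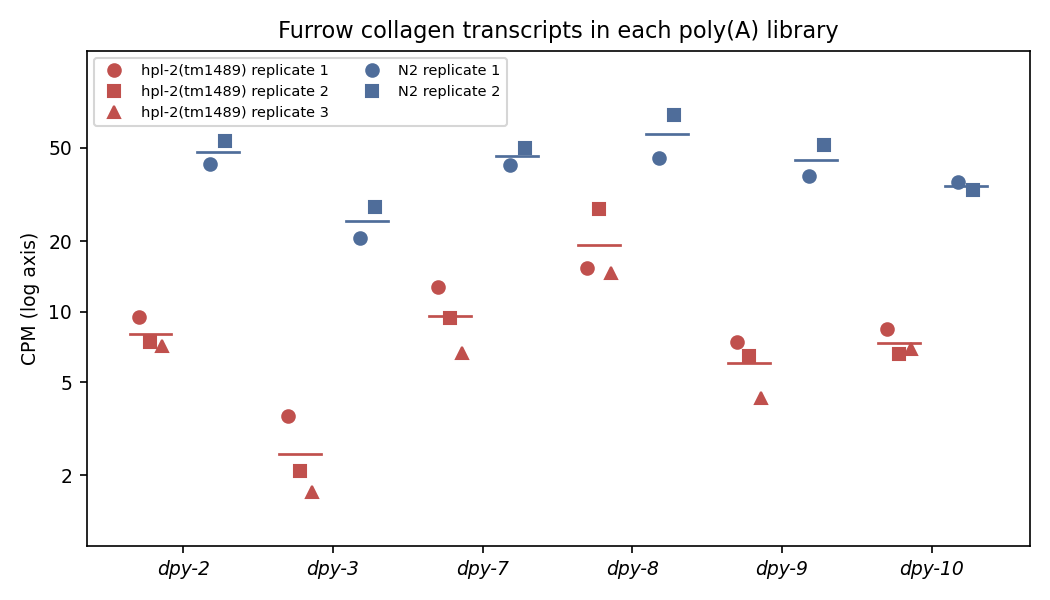
CPM (log axis) of each furrow collagen gene in each poly(A) library, with *hpl-2*(*tm1489*) in red at the left of each pair, N2 in blue at the right, and horizontal lines at the group means. For all 6 genes the 3 *hpl-2*(*tm1489*) libraries lie below both N2 libraries, and the gap is narrowest for *dpy-8*, whose *hpl-2*(*tm1489*) replicate 2 reached 27.5 CPM against 45.3 CPM in the lower N2 library.

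The X chromosome carries *dpy-3*, *dpy-7* and *dpy-8*. The *dpy-3* gene had the largest decrease of the 6. Its level was 3.58, 2.09 and 1.70 CPM in *hpl-2*(*tm1489*) replicates 1, 2 and 3, against 20.5 and 27.995 CPM in N2. The lower N2 library was still 5.73 times the highest *hpl-2*(*tm1489*) library. The fitted change was 9.85-fold lower, a log2 fold change of -3.30 (SE 0.36, adjusted p 9.47e-05 from edgeR), and 2.52% of all tested genes had a smaller (more negative) log2 fold change. Of the 6 genes it also varied most among the *hpl-2*(*tm1489*) libraries, with a highest-to-lowest ratio of 2.11.

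The *dpy-7* gene, whose promoter is widely used to drive transgenes in the epidermis, had 12.7, 9.38 and 6.68 CPM in *hpl-2*(*tm1489*), against 42.4 and 49.9 CPM in N2. The *hpl-2*(*tm1489*) libraries spread over a 1.90-fold range and stayed clear of N2 by 3.34-fold. The log2 fold change was -2.27 (SE 0.32, adjusted p 0.000362 from edgeR), or 4.81-fold lower.

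The *dpy-8* gene was lowered least. Its level was 15.4, 27.5 and 14.6 CPM in *hpl-2*(*tm1489*), against 45.3 and 68.9 CPM in N2. Replicate 2 stood above the other *hpl-2*(*tm1489*) libraries, and in raw counts it reached 3123, close to the 3647 and 3709 counts of N2, though from a deeper library. The log2 fold change was -1.57 (SE 0.35, adjusted p 0.00429 from edgeR), or 2.98-fold lower. Without *hpl-2*(*tm1489*) replicate 2 it was -2.01. The call was lost when libraries were scaled to *pmp-3*, the reference transcript of the study's RT-PCR, where the log2 fold change was -1.33 with an adjusted p of 0.114 (4.95e-05 to 0.114 over all alternatives).

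The *dpy-2* and *dpy-10* genes lie close together on chromosome II and have been studied as a pair, since mutations in either gene can make animals dumpy, left-handed rollers. The *dpy-2* gene had 9.47, 7.40 and 7.14 CPM in *hpl-2*(*tm1489*), against 42.9 and 53.5 CPM in N2. Its log2 fold change was -2.59 (SE 0.28, adjusted p 8.79e-05 from edgeR), or 6.02-fold lower. The *dpy-10* gene had 8.42, 6.61 and 6.92 CPM in *hpl-2*(*tm1489*), against 35.6 and 32.9 CPM in N2. It was the steadiest of the 6, with a highest-to-lowest ratio of 1.27 among *hpl-2*(*tm1489*) libraries and 1.08 in N2, and its log2 fold change of -2.23 (SE 0.26, adjusted p 0.00014 from edgeR) was 4.68-fold lower. The ratio of *dpy-2* to *dpy-10* within a library was 1.12, 1.12 and 1.03 in *hpl-2*(*tm1489*), against 1.20 and 1.62 in N2. All 3 mutant ratios were below both N2 ratios, but the N2 values were far apart from each other.

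The *dpy-9* gene, on chromosome IV, had the next largest decrease after *dpy-3*. Its level was 7.39, 6.45 and 4.29 CPM in *hpl-2*(*tm1489*), against 37.9 and 51.3 CPM in N2. The groups were 5.13-fold apart at their nearest libraries, and the log2 fold change was -2.88 (SE 0.32, adjusted p 9.85e-05 from edgeR), or 7.37-fold lower. The *dpy-8* and *dpy-10* genes overlap 1 other annotated gene each in the WBcel235 annotation. The libraries were strand-specific, but whether counting used the strand is not stated, so reads of such partners could not be told apart here.

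**Figure D2:**
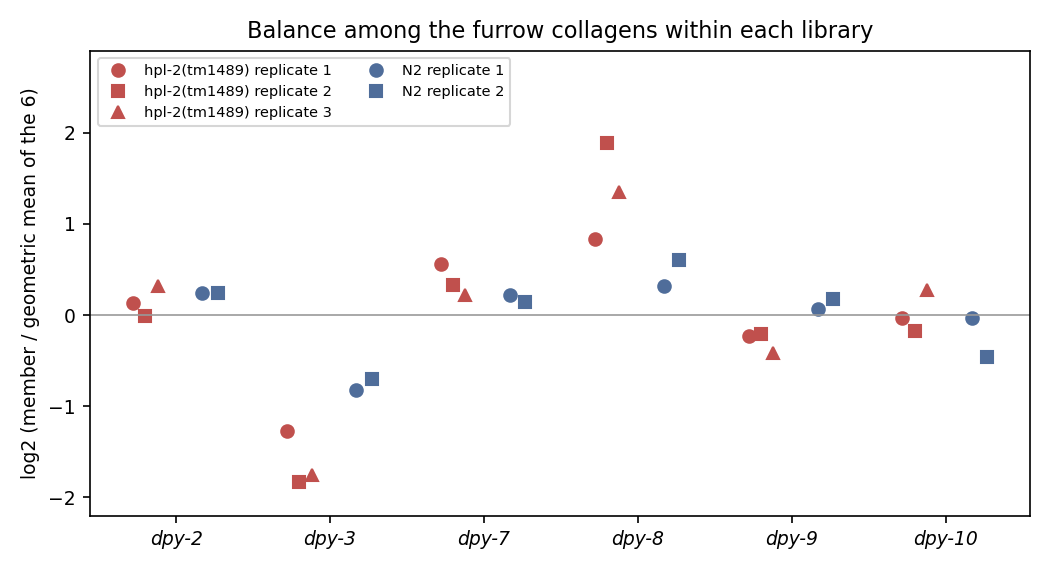
Level of each furrow collagen relative to the geometric mean of the 6 in the same library, on the log2 scale, with *hpl-2*(*tm1489*) in red at the left and N2 in blue at the right. A value of 0 is the mean of the 6 genes. *dpy-8* is higher and *dpy-3* and *dpy-9* are lower in all 3 *hpl-2*(*tm1489*) libraries than in both N2 libraries, and the other members overlap. The reference holds *dpy-8* itself, and *dpy-9* overlaps when *dpy-8* is taken out of it.

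Although all 6 members fell, the balance among them differed between these libraries of the 2 strains. Ratios between genes of 1 library do not depend on the scaling between libraries. Relative to the geometric mean of the 6, *dpy-8* stood at 0.83, 1.89 and 1.35 on the log2 scale in *hpl-2*(*tm1489*), against 0.32 and 0.60 in N2, and the difference of the means was 0.90. The same quantity for *dpy-3* was -1.27, -1.83 and -1.75 in *hpl-2*(*tm1489*), against -0.82 and -0.70 in N2, a difference of -0.86. For *dpy-9* it was -0.22, -0.21 and -0.42 in *hpl-2*(*tm1489*), against 0.06 and 0.18 in N2, a difference of -0.40. The groups did not overlap for these 3 genes and overlapped for *dpy-2*, *dpy-7* and *dpy-10*, whose differences of means were -0.09, 0.19 and 0.27. Leaving out 1 library at a time moved these differences to -0.18 to -0.01 for *dpy-2*, 0.10 to 0.26 for *dpy-7* and 0.05 to 0.48 for *dpy-10*. The lowest absolute value came without *hpl-2*(*tm1489*) replicate 2 for *dpy-2*, without *hpl-2*(*tm1489*) replicate 1 for *dpy-7* and without N2 replicate 2 for *dpy-10*. The highest came without *hpl-2*(*tm1489*) replicate 3 for *dpy-2* and *dpy-7* and without N2 replicate 1 for *dpy-10*. No test was run on these ratios, since with 3 libraries against 2 there are 10 orderings and a one-sided exact test cannot go below a p of 0.1. The differences ranged from -1.04 to -0.75 for *dpy-3*, from -0.46 to -0.33 for *dpy-9* and from 0.63 to 1.16 for *dpy-8*, whose lowest value came without *hpl-2*(*tm1489*) replicate 2. The spread of *dpy-8* within the mutant (SD 0.53, n = 3) was the widest of the 6.

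The mean of the 6 holds *dpy-8* itself, so a higher *dpy-8* lowers the ratios of the others. Relative to the geometric mean of the 5 members other than *dpy-8*, a reference chosen after seeing the data, *dpy-3* was still lower, at -1.101, -1.46 and -1.48 in *hpl-2*(*tm1489*), against -0.76 and -0.58 in N2. The *dpy-9* values then overlapped, at -0.06, 0.17 and -0.14 in *hpl-2*(*tm1489*), against 0.13 and 0.30 in N2. With this reference *dpy-7* and *dpy-10* lay above N2 in every *hpl-2*(*tm1489*) library, with differences of means of 0.37 and 0.45, and *dpy-2* overlapped with a difference of 0.09. The lower relative level of *dpy-3* was thus found with either reference, and whether the groups overlapped for *dpy-7*, *dpy-9* and *dpy-10* depended on it.

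As shares of the summed counts of the 6 genes, *dpy-8* made up 36.2% ± 9.65 in *hpl-2*(*tm1489*) (SD, n = 3) and 22.2% ± 2.86 in N2 (SD, n = 2). Its single values were 27.02%, 46.3% and 35.4% in *hpl-2*(*tm1489*), against 20.2% and 24.2% in N2. The share of *dpy-3* was 4.64% ± 1.46 in *hpl-2*(*tm1489*) and 9.49% ± 0.491 in N2, and that of *dpy-9* was 11.4% ± 1.38 in *hpl-2*(*tm1489*) and 17.4% ± 0.818 in N2. The mean share of *dpy-7* hardly moved, at 18.1% ± 3.67 in *hpl-2*(*tm1489*) and 18.2% ± 0.939 in N2. That of *dpy-2* was 15.4% ± 2.62 in *hpl-2*(*tm1489*) and 18.9% ± 0.194 in N2, with every mutant library below both N2 libraries. For *dpy-10* it was 14.2% ± 2.85 in *hpl-2*(*tm1489*) and 13.7% ± 3.03 in N2. The shares of a library add up to a fixed total, so a higher share of *dpy-8* lowers those of the others. Wilson 95% intervals of these shares in single libraries reached at most 1.524 percentage points to either side and cover counting error only. In replicate 2 of the mutant, *dpy-8* alone gave almost as many counts as the other 5 genes together.

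Levels of different genes can be compared only per length, and gene spans with introns included, between 1043 and 2079 bp, were used for this. Per kilobase of span, *dpy-8* led in *hpl-2*(*tm1489*) at 11.5 ± 4.32 CPM per kb (SD, n = 3). It was followed by *dpy-7* at 7.23 ± 2.28, *dpy-2* at 4.76 ± 0.760, *dpy-10* at 3.52 ± 0.465, *dpy-9* at 3.32 ± 0.872 and *dpy-3* at 2.35 ± 0.955 CPM per kb. In N2 the order was *dpy-7* at 34.8 ± 4.01 CPM per kb (SD, n = 2), *dpy-8* at 34.1 ± 9.96, *dpy-2* at 28.7 ± 4.47, *dpy-9* at 24.5 ± 5.20, *dpy-3* at 23.3 ± 5.05 and *dpy-10* at 16.5 ± 0.920 CPM per kb. Compared across the libraries of a group, the values of most neighbors in these orders overlapped. The exceptions were *dpy-2* and *dpy-10* in *hpl-2*(*tm1489*), with a lowest *dpy-2* value of 4.25 and a highest *dpy-10* value of 4.05 CPM per kb, and *dpy-3* and *dpy-10* in N2, with a lowest *dpy-3* value of 19.7 and a highest *dpy-10* value of 17.1 CPM per kb. Compared within each library, more of the order held. In every *hpl-2*(*tm1489*) library *dpy-7* was also above *dpy-2*, and *dpy-9* above *dpy-3*. In both N2 libraries *dpy-8* was above *dpy-2*, *dpy-2* above *dpy-9* and *dpy-9* above *dpy-3*. The distance between the highest and the lowest group mean was 4.87-fold in *hpl-2*(*tm1489*) and 2.11-fold in N2, so these means were less even in the mutant. The mutant value rests partly on *dpy-8* in replicate 2, at 16.4 CPM per kb. Without that library the mutant means were 8.97 for *dpy-8* and 2.53 CPM per kb for *dpy-3*. Within single libraries the distance varied. In *hpl-2*(*tm1489*) replicate 1 the highest and lowest values were 9.58 (*dpy-7*) and 3.44 CPM per kb (*dpy-3*). For *dpy-8* and *dpy-3*, the highest and lowest there, they were 16.4 and 2.00 in replicate 2 and 8.74 and 1.63 in replicate 3. In N2 they were 32.0 (*dpy-7*) and 17.1 (*dpy-10*) in replicate 1, and 41.2 (*dpy-8*) and 15.8 CPM per kb (*dpy-10*) in replicate 2.

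Other collagens of the cuticle were lower as well. Of 13 other collagens with a role in body shape or blistering, 11 were called lower, 0 higher, and 2 were not called. For all tested genes the shares were 27.6% lower and 33.9% higher. The 13 genes had a median log2 fold change of -3.86, against -2.43 for the furrow collagens. *sqt-3* had a log2 fold change of -4.38 (adjusted p 4.26e-05 from edgeR), *dpy-13* one of -4.08, *rol-6*, whose dominant allele is a common marker for transgenic animals, one of -2.97, and the strut collagen *bli-2* one of -2.56. The genes not called, *dpy-14* and *dpy-17*, had at most 184 counts in any library. These 13 genes summed to 1003, 609 and 490 CPM in *hpl-2*(*tm1489*), against 8485 and 12213 CPM in N2, 14.8-fold lower, whereas the furrow sum was 4.84-fold lower. In relation to that sum, the furrow collagens amounted to 5.68%, 9.76% and 8.43% in *hpl-2*(*tm1489*), against 2.65% and 2.33% in N2. All 3 mutant values of this ratio were thus above both N2 values.

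Of 159 numbered *col* genes listed, 144 were tested, 76 were called lower and 37 higher, and their median log2 fold change was -1.08. Over all tested genes, 27.6% were called lower and 33.9% higher. Over a pool of 178 collagen genes, the furrow collagens held 0.126%, 0.190% and 0.0920% of collagen counts in *hpl-2*(*tm1489*), against 0.376% and 0.377% in N2. They were thus a small part of collagen RNA in both strains and a smaller part of it in *hpl-2*(*tm1489*).

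**Figure D3:**
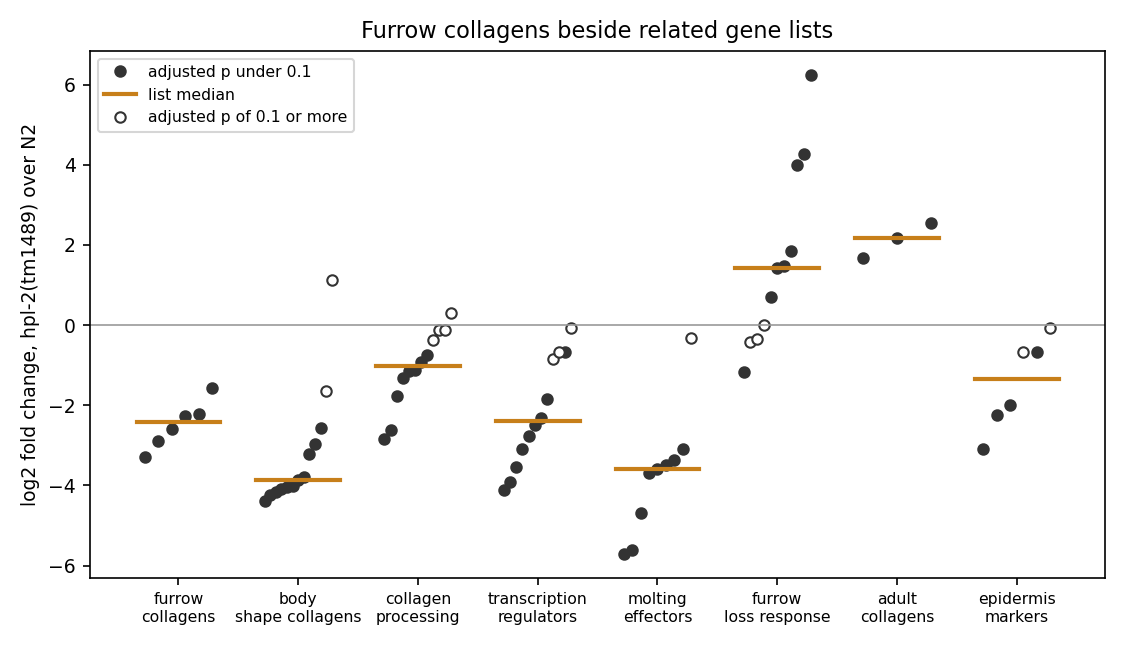
Log2 fold changes of *hpl-2*(*tm1489*) over N2 for the single genes of the furrow collagens and 7 other lists, with 1 point per tested gene, filled where the adjusted p was under 0.1, and an orange line at the list median. The 6 furrow collagens lie between -3.30 and -1.57, most other body shape collagens and molting effectors lie lower, and the adult collagens and 7 of the 11 furrow loss response genes are called higher.

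Of 12 genes that modify, cut or cross-link cuticle collagens, 8 were called lower, 0 higher and 4 were not called. By comparison, 27.6% of all tested genes were called lower and 33.9% higher. The median log2 fold change of the 12 was -1.03. *dpy-18*, a catalytic subunit of collagen prolyl 4-hydroxylase, changed by -2.85 on the log2 scale (SE 0.29, adjusted p 6.25e-05 from edgeR), *dpy-11*, a thioredoxin-like protein, by -2.61, and *pdi-2*, the protein disulfide isomerase that pairs with the hydroxylase, by -1.78. *phy-2*, another catalytic subunit, had a log2 fold change of -1.32, the disulfide isomerase *pdi-1* one of -1.15 and *bli-5* one of -1.13, all called lower. *bli-3*, the dual oxidase of the cross-linking step, had a log2 fold change of -0.93 (adjusted p 0.0122), a call that was lost at -0.46 once a trend with gene span was removed. The proprotein convertase *bli-4* (-0.37, adjusted p 0.259), the peroxidase *mlt-7* (-0.13, adjusted p 0.717) and the metalloprotease *dpy-31* (0.31, adjusted p 0.34) did not pass the threshold in edgeR. With scaling to *pmp-3*, 5 of the 12 genes were called. The calls of *phy-2* (adjusted p 0.105 from edgeR), *bli-5* (0.215) and *doxa-1*, another gene of the list (0.163), were lost there.

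Transcription factors of the epidermis and the molting cycle were also lower, with 9 of 12 called lower and 0 called higher. Among all tested genes, 27.6% were called lower and 33.9% higher. The median log2 fold change of the 12 was -2.40, close to the -2.43 of the furrow collagens. *lin-42*, the homolog of the clock gene period, had 13.2, 6.71 and 6.58 CPM in *hpl-2*(*tm1489*), against 123 and 185 CPM in N2, a log2 fold change of -4.12 (adjusted p 4.52e-05 from edgeR). *blmp-1*, a zinc finger factor of the epidermis, had 10.9, 9.27 and 9.17 CPM in *hpl-2*(*tm1489*), against 52.3 and 56.8 CPM in N2, a log2 fold change of -2.48 that is similar in size to that of *dpy-2*. The nuclear receptor *nhr-25* (-3.09), the Grainyhead homolog *grh-1* (-2.32) and *lin-29* (-1.85), which acts at the change from larva to adult, were called lower. The nuclear receptor *nhr-23* (-0.84, adjusted p 0.116) and the GATA factor *elt-3* (-0.07, adjusted p 0.845) did not pass the threshold in edgeR.

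Genes that act at the molt were lower too. Of 9, 8 were called lower and 0 higher, where 27.6% of all tested genes were called lower and 33.9% higher. The median log2 fold change of the 9 was -3.60. *mlt-10* had 13.3, 5.42 and 7.32 CPM in *hpl-2*(*tm1489*), against 344 and 565 CPM in N2, a log2 fold change of -5.71 (adjusted p 2.88e-05 from edgeR). *mlt-11*, a predicted protease inhibitor, had a log2 fold change of -5.62, the apical matrix protein gene *noah-1* one of -3.37, and *nas-37*, a protease that helps shed the old cuticle, was not called at -0.32. The summed level of the list was 12.2-fold lower in *hpl-2*(*tm1489*), against 4.84-fold for the furrow collagens.

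**Figure D4:**
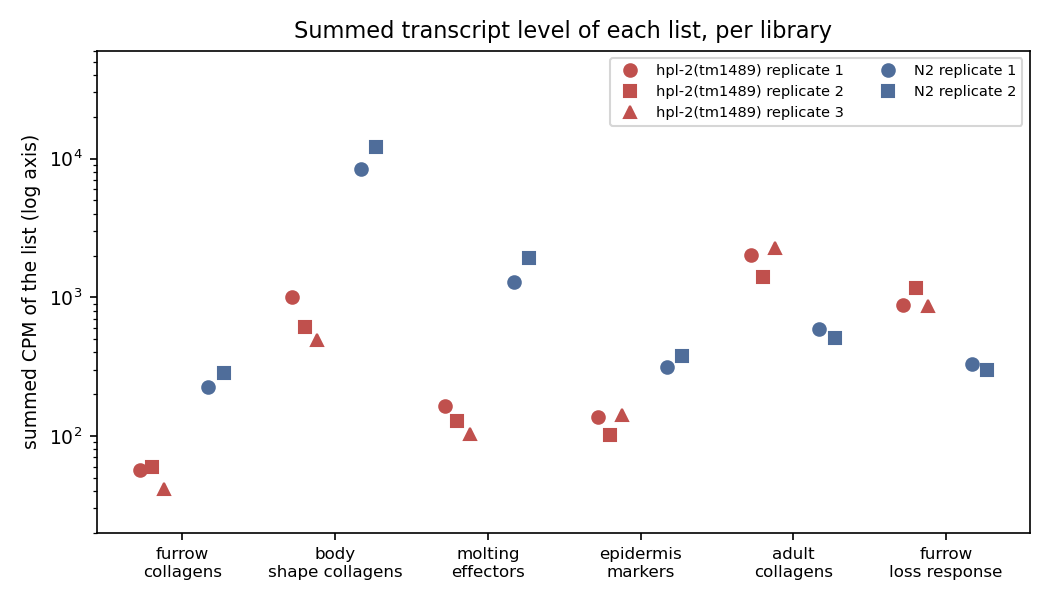
Summed CPM (log axis) of the furrow collagens and 5 other lists in each library, with *hpl-2*(*tm1489*) in red at the left and N2 in blue at the right. The furrow collagens sum to 41.4 to 59.4 CPM in *hpl-2*(*tm1489*) and 225 to 285 CPM in N2, and the adult collagens and the furrow loss response are higher in every *hpl-2*(*tm1489*) library than in both N2 libraries.

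Of 11 genes that are known to be turned on when furrows are lost, 7 were called higher in *hpl-2*(*tm1489*), where 33.9% of all tested genes were, 1 was called lower, and the median log2 fold change was 1.43. All 3 mutant libraries were above both N2 libraries for 7 of the 11, as for 39.0% of tested genes. The epidermal antimicrobial peptide genes led. *nlp-29* had 7193, 9960 and 4838 counts in *hpl-2*(*tm1489*), against 322 and 152 counts in N2, a log2 fold change of 4.26 (SE 0.39, adjusted p 4.37e-05 from edgeR). *nlp-28* had a log2 fold change of 6.25, *nlp-27* one of 4.00 and *nlp-31* one of 1.43, but *nlp-30* was not called (-0.43, adjusted p 0.265) and *nlp-34* was called lower (-1.18). These genes are closely similar copies, so that reads may be lost or split among them and the single values are uncertain. Among the osmotic stress genes, *hmit-1.1*, a myo-inositol transporter, had 194, 161 and 128 CPM in *hpl-2*(*tm1489*), against 48.7 and 40.3 CPM in N2, a log2 fold change of 1.85. *gpdh-1*, the glycerol synthesis enzyme, had 34.6, 29.9 and 24.2 CPM in *hpl-2*(*tm1489*), against 20.5 and 16.0 CPM in N2. Its groups did not overlap, but its log2 fold change of 0.70 (adjusted p 0.0664 from edgeR) was not called with upper quartile scaling (0.38), with scaling to *pmp-3* (0.80) or once a trend with gene span was removed (0.48). The peptide gene *cnc-2* (1.48, adjusted p 0.0384 from edgeR) lost its call under the same 3 settings. The detoxification genes *gst-4* (-0.35, adjusted p 0.38) and *gcs-1* (adjusted p 0.997) did not pass the threshold in edgeR. With scaling to *pmp-3*, 5 of the 11 genes were called.

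Several markers of stage and of other tissues also differed between the groups, in either direction. For the counts that follow, 27.6% of all tested genes were called lower and 33.9% higher. The adult collagens on the list, *col-7*, *col-19* and *col-62*, were called higher, 3 of 3. They summed to 2011, 1399 and 2257 CPM in *hpl-2*(*tm1489*), against 592 and 511 CPM in N2. This list is short, and the collagens *bli-1* (log2 fold change -4.16) and *bli-2* (-2.56), counted above with body shape or blistering, were called lower. The vitellogenins, yolk proteins made by the adult intestine, were called lower, 6 of 6, at 808 to 1647 CPM in *hpl-2*(*tm1489*), against 6620 to 7255 CPM in N2. Of 6 epidermis markers, 4 were called lower, and their sum was 138, 101 and 140 CPM in *hpl-2*(*tm1489*), against 312 and 378 CPM in N2. The furrow collagen sum divided by that of the epidermis markers was 0.414, 0.588 and 0.294 in *hpl-2*(*tm1489*), against 0.720 and 0.752 in N2. It was lower in every *hpl-2*(*tm1489*) library than in both N2 libraries, by 1.70-fold in the mean, against 4.84-fold without this division. The divisor rests largely on *ajm-1*, which gave 204 of 345 CPM in the N2 mean and 50.9 of 126 CPM in the *hpl-2*(*tm1489*) mean. The markers changed unequally, with log2 fold changes from -3.09 for *nhr-25* to -0.07 for *elt-3*. Neither *elt-3* nor *lin-26* (-0.67) was called. Division by single markers was not tested. The epidermis list holds *elt-1*, *elt-3*, *lin-26* and *nhr-25*, which are also among the transcription factors above.

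The body wall muscle markers *myo-3*, *unc-15* and *unc-54* were all called lower, at 284 to 626 CPM in *hpl-2*(*tm1489*), against 4997 to 8797 CPM in N2. The intestine markers were called lower, 3 of 3, at 934 to 1131 CPM in *hpl-2*(*tm1489*), against 1442 to 1695 CPM in N2. Of 3 sperm markers, *fer-1* (log2 fold change -3.91) and *spe-9* (-1.70) were called lower and *spe-11* (0.28) was not called. The 3 summed to 20.6 to 40.6 CPM in *hpl-2*(*tm1489*), against 48.2 to 53.0 CPM in N2. Most of the mutant sum was *spe-11*, with a mean of 24.6 CPM in *hpl-2*(*tm1489*) and 20.2 CPM in N2. Neuron markers summed to 136 to 172 CPM in *hpl-2*(*tm1489*) and 144 to 179 CPM in N2, with 1 of 3 called lower. Germ line markers summed to 604 to 1375 CPM in *hpl-2*(*tm1489*) and 1082 to 1560 CPM in N2, with 1 of 4 called lower and 1 higher. With 27.6% of all tested genes called lower, the lower calls among neuron and germ line markers are near the background. No marker was at 0 in any library. The calls of *elt-1*, *act-5*, *rab-3* and *glh-1* were lost with library size alone, those of *elt-1*, *act-5* and *rab-3* also with scaling to *pmp-3*, and those of *elt-1* and *rab-3* also with the gene span correction. The part of stage and tissue makeup in the furrow collagen result was not tested.

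The 6 members had 11 distinct protein-coding neighbors in the annotation, of which 8 have a row in the count table and 7 were tested. Of the 7, 3 were called lower and 2 higher, where 27.6% of all tested genes were called lower and 33.9% higher, so these counts are near the background. The neighbors *npax-2* of *dpy-3* (log2 fold change -2.36, adjusted p 0.00118), *ceh-14* of *dpy-7* (-1.12, adjusted p 0.00600) and *rpy-1* of *dpy-10* (-1.23, adjusted p 0.00259) were called lower in edgeR. On both sides of *dpy-9*, which itself fell 7.37-fold, the neighbors were called higher. *R02D3.8* had 30.5, 32.2 and 35.9 CPM in *hpl-2*(*tm1489*), against 10.2 and 8.32 CPM in N2, and *pqbp-1.1* had 76.8, 116 and 96.1 CPM in *hpl-2*(*tm1489*), against 31.9 and 36.6 CPM in N2. The neighbors *glb-16* of *dpy-7* and *C31H2.3* of *dpy-8* did not pass the threshold (adjusted p 0.506 and 0.223 in edgeR).

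Genes with the most similar pattern were found by the Euclidean distance to the mean of the 6 members over the 5 libraries, on log2 of CPM plus 0.5 with the mean of each gene taken off. The closest was *grl-27*, a ground-like gene of the hedgehog-related family, at a distance of 0.0548. It had 3.54, 3.03 and 2.35 CPM in *hpl-2*(*tm1489*), against 15.5 and 19.1 CPM in N2. *K03A11.6* (distance 0.134), *lon-8* (0.150), *T21C9.9* (0.151) and *Y77E11A.14* (0.160) came next. *K03A11.6* had 0.243, 0.176 and 0.0657 CPM in *hpl-2*(*tm1489*), against 2.61 and 3.64 CPM in N2, and its log2 fold change of -4.23 lies outside the range of the 6 members. Its mutant values are under the pseudocount of 0.5, which narrows its distance. *lon-8*, a secreted epidermal protein that affects body length, had 66.6, 59.5 and 44.3 CPM in *hpl-2*(*tm1489*), against 239 and 316 CPM in N2. The members themselves lay farther from their own mean, at distances of 0.250 for *dpy-2*, 0.305 for *dpy-7*, 0.468 for *dpy-9*, 0.500 for *dpy-10*, 0.848 for *dpy-3* and 1.16 for *dpy-8*. *dpy-3* and *dpy-8* were thus the least like the mean pattern. The choice of like genes depends on the pseudocount: 2 of the 5 were chosen again with a pseudocount of 1 and 0 of the 5 with a pseudocount of 5.

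**Figure D5:**
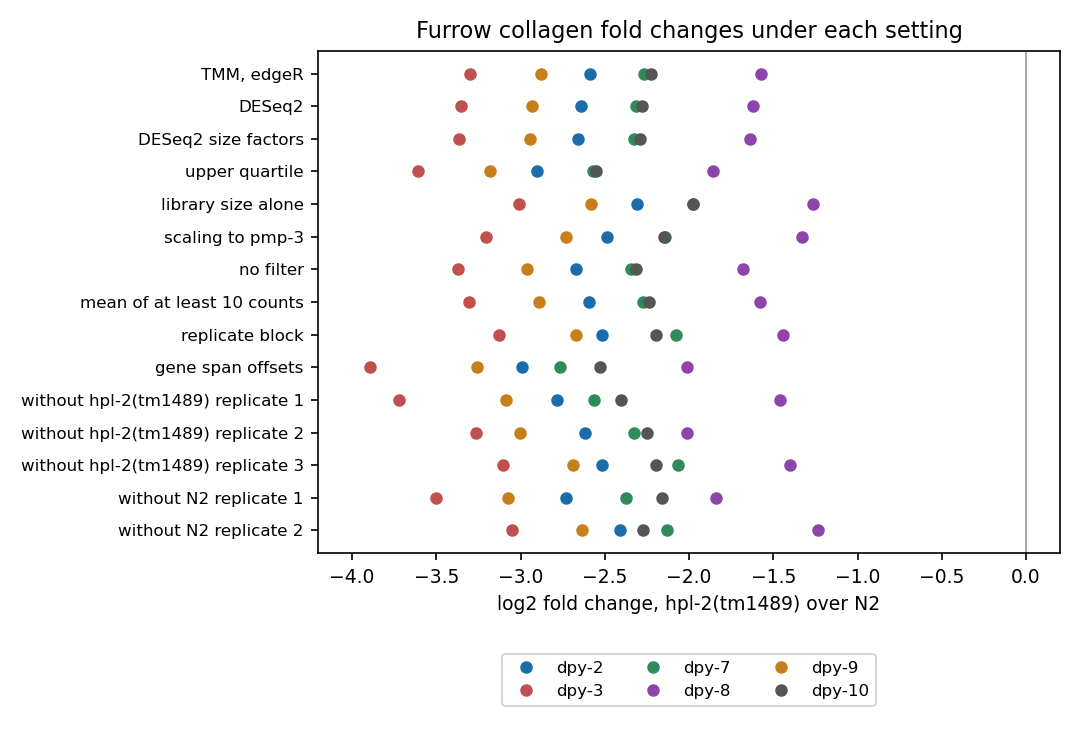
Log2 fold change of *hpl-2*(*tm1489*) over N2 for each furrow collagen under 15 fits that differ in tool, scaling, filter, replicate block, gene span correction or library left out, with 1 point per gene and fit and a line at 0. All points lie below 0, *dpy-3* is the lowest and *dpy-8* the highest in each of the 15 fits, and the 6 genes shift together between scalings.

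The order of the decreases was steady at its ends. In 15 of 15 fits *dpy-3* had the largest decrease of the 6 and *dpy-8* the smallest, and all 6 genes were called in 14 of the 15. Among 14 alternatives, *dpy-3* lay between -3.89 and -3.01 on the log2 scale, and the values went from -3.26 to -2.58 for *dpy-9*, from -2.99 to -2.31 for *dpy-2*, from -2.77 to -1.98 for *dpy-7*, from -2.55 to -1.98 for *dpy-10* and from -2.01 to -1.23 for *dpy-8*. The ranges of *dpy-7* and *dpy-10* coincide almost fully, and their places in the order changed between fits.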

How the data were processed

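Poly(A) RNA of whole animals was sequenced by the study in 3 *hpl-2*(*tm1489*) and 2 N2 libraries as single-end, strand-specific reads. After trimming, the authors ran TopHat2 (2.0.14, per the submitters' processing notes) against WS220, assigned unique alignments to genes with Rsubread and deposited the raw counts. The deposited counts are not normalized. The ChIP and double-stranded RNA samples of the series were not analysed here.

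Counts were fitted with edgeR 4.0.16 in R 4.3.3 (filterByExpr with a minimum count of 10, TMM, robust quasi-likelihood test of genotype), with Benjamini-Hochberg adjustment over 17498 genes and a threshold of 0.1. CPM were computed with library sizes adjusted by TMM. The fit was tested on simulated data with the means of these libraries, where 200 of 17266 genes were changed by a log2 of 2. Of these 200, 198 were recovered, with 11 false calls. The changed genes were drawn only from genes with higher mean counts, and all genes were given the same dispersion. Recovery of changed genes with low counts was not tested. A share of changed genes as high as the 61.5% called in the real libraries was not tested. The furrow collagens and all other lists were chosen with earlier results of these data known. The genes named are the 6 members, *hpl-2*, the genes of the lists and tissue markers, the immediate protein-coding neighbors, and the 5 genes closest in pattern to the mean of the members.

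Gene names, spans and neighbors came from an NCBI RefSeq table of WBcel235, and 97.1% of tested genes had a span there. Levels per coding length were not computed, and gene span was used instead. Alternatives were DESeq2 1.42.0, other scalings and filters, a replicate block, a correction for gene span and leaving out each library. Replicate pairs differed by at least 97.2 times the chi-square expected from counting, so all 5 libraries were kept as separate samples. Intervals of shares cover counting error only.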

Additional observations from a re-analysis of the deposited data

How the results depend on the processing

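All 6 furrow collagens kept their direction under every alternative run, and 95 of 96 single values kept their side of the threshold. The exception was *dpy-8* with scaling to *pmp-3* (-1.33, adjusted p 0.114), where the cause was not tested. The median log2 fold change of the 6 (-2.43) was -2.74 with upper quartile scaling and -2.88 with a correction for gene span, and -2.67 to -2.34 when each library was left out. Over all tested genes the median stood at 0.16 under TMM, -0.16 with upper quartile scaling, 0.41 with library size alone and 0.01 with the gene span correction, and relative to it the 6 genes stayed lower. The share of called genes that were lower was 44.9% with TMM, 57.5% with upper quartile scaling and 36.0% with library size alone. The log2 ratio of the summed furrow collagen level (-2.28) was -2.58 with upper quartile scaling, -1.99 with library size alone and -2.56 without *dpy-8*, an alternative chosen after seeing the data, and -2.44 to -2.10 when each library was left out. Scaling to *pmp-3* left 5 collagen processing genes called (8 with TMM) and 5 furrow loss response genes (8 with TMM). With *dpy-8* taken out of the reference of the ratios, also chosen after seeing the data, *dpy-2* was at 0.09 (-0.09 with it). The like genes were 2 and 0 of 5 with pseudocounts of 1 and 5. Without an N2 library, the lone N2 sample is assumed to vary like the mutant group.

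With the replicate number as a block, the median was -2.36, all 6 genes were called and 7879 genes were called in all, against 10757 without it. Deviations from the group means correlated at -0.168 and -0.257 between libraries of the same number. The deviations of the 2 N2 libraries mirror each other, so these values cannot settle whether libraries of the same number share more than it. Levels per coding length were not run. With 2 N2 libraries, the spread rather than the depth limits these comparisons.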
